A study of Mus musculus with 2 samples.

Results

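Inflammatory chemokine receptors are the surface receptors that guide lymphocytes into inflamed tissue or into barrier tissue such as gut and skin, and 9 of their genes were followed here: Ccr1, Ccr2, Ccr4, Ccr8, Ccr9, Ccr10, Ccrl2, Cx3cr1 and Cxcr3. They were taken by gene symbol, the set was chosen with earlier results of these data known, and each of the 9 had a row among the 22609 genes listed in both libraries. RNA was sequenced from CD8+ regulatory T cells, a CD8+ T cell population that restrains other immune cells, isolated by flow cytometry from spleens of naïve mice aged 3 months. The control library is from wild-type (WT) animals and the other from animals of genotype Tgfbr2-/-Eomes-/-, abbreviated DKO, which are labelled as lacking a TGF-beta receptor subunit and the T-box transcription factor Eomes. The labels do not say how the alleles were made, in which cells they were deleted, how many mice were pooled or which surface markers set the sort. Each genotype has 1 library and no replicate, so intervals are exact 95% intervals for counting error and compare 2 libraries, not 2 genotypes.

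Chemokine receptors are G protein-coupled receptors that read gradients of small secreted proteins, the chemokines, and turn them into directed movement through the inhibitory G protein Gi. Naive T cells mostly carry receptors for lymph nodes, whereas activated CD8+ T cells gain receptors such as CXCR3 and CX3CR1 that lead to inflamed sites or keep cells in the blood. CCR9 draws lymphocytes to the small intestine, and CCR4, CCR8 and CCR10 are best known from skin-homing and regulatory T cells. CCR1 and CCR2 are abundant on monocytes but also occur on effector and memory T cells. CCRL2 is an atypical receptor that binds chemerin without the usual G protein signal.

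Reads assigned to genes summed to 22307065 for WT and 19661212 for DKO. Both targeted genes were still counted in DKO, with Eomes 2.61-fold lower (interval 2.52 to 2.72) and Tgfbr2 1.46-fold lower (1.41 to 1.51). The markers of the labelled cell type were abundant, with Cd8a at 998 and 978 CPM (counts scaled to library size) and none of 16 CD8 T cell markers at 0. Defining markers of other cell types were present too: Csf1r of macrophages had 174 CPM in WT and 329 in DKO, and S100a8 of neutrophils 103 and 490. In bulk RNA a difference in the number of cells of a type and a difference in RNA per cell cannot be told apart.

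The 9 receptors did not move as a block. A gene was called higher or lower when its CPM ratio was at least 2-fold with an interval that left out 1, with genes entering the comparison from 1 CPM upwards in WT or DKO. Cx3cr1, Ccr9, Ccrl2 and Ccr1 were called higher in DKO, so 4 of the 8 receptors compared, against a background of 11.7% of 11735 genes. No receptor was called lower, against 3.67% of all genes. Cxcr3 and Ccr2, both abundant, were slightly lower with intervals below 1, Ccr4 and Ccr10 differed by less than 2-fold in opposite directions, and Ccr8 lay under the minimum of 1 CPM in both libraries. The median log2 ratio of the 8 compared was 1.02, beside 0.00 for all genes compared.

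**Figure D1:**
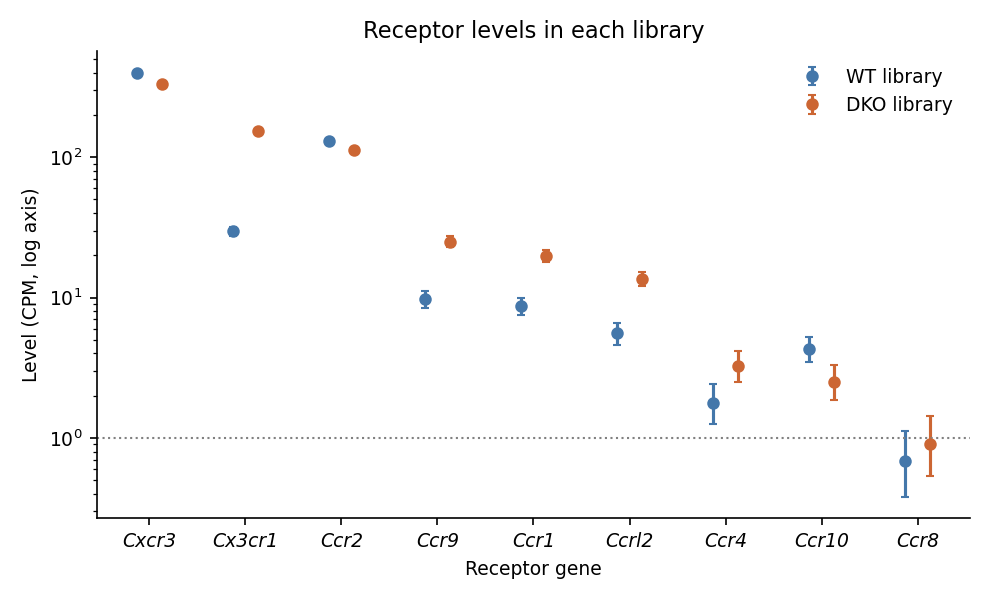
Level of each receptor gene in CPM on a log axis, with WT in blue and DKO in orange; bars are exact 95% counting intervals, and the dotted line marks 1 CPM. Cxcr3 is highest in both libraries, Cx3cr1 goes from 29.6 to 153 CPM, and Ccr8 stays under 1 CPM.

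Cx3cr1 encodes the receptor for fractalkine and marks circulating cytotoxic effector T cells, patrolling monocytes and mature NK cells. It had 650 reads in WT and 3050 in DKO, or 29.6 CPM (27.4 to 32.0) and 153 CPM (147 to 158). The counting intervals of both libraries lay far apart, and the gene was 5.15-fold higher in DKO (4.73 to 5.61). Its level per kilobase of exon went from percentile 55.2 of detected genes in WT to percentile 87.9 in DKO.

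The genes whose 2 levels lay closest to those of Cx3cr1, by distance on the log2(CPM + 0.5) scale over 2 libraries, were Anxa1, Ly6a, Gzmb, Top2a and Ace. Anxa1, which encodes a phospholipid-binding protein, had 31.8 and 136 CPM. Ly6a, an activation antigen also called Sca-1, had 31.5 and 133 CPM. Gzmb, the cytotoxic protease granzyme B, had 35.9 and 157 CPM. Top2a is a topoisomerase of dividing cells and had 34.5 and 128 CPM, and Ace, the angiotensin-converting enzyme, had 38.4 and 156 CPM. With 2 libraries this likeness says only that levels and ratio were close.

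Cxcr3 encodes the receptor for the interferon-induced chemokines CXCL9, CXCL10 and CXCL11 and is a hallmark of type 1 effector and memory T cells. It was the most abundant of the receptors, with 8673 reads in WT and 6662 in DKO, or 395 and 333 CPM. The DKO level was 1.19-fold lower (1.15 to 1.23), a small difference that lay outside counting error. The log2 ratio of -0.25 stood at percentile 25.8 of all genes compared, so it was not unusual among them. The ratio of Cxcr3 to Cx3cr1 reads, which does not depend on library scaling, went from 13.3 (12.3 to 14.5) in WT to 2.18 (2.09 to 2.28) in DKO.

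Promoter sequences are shown for the 4 receptors called higher and for Cxcr3, the most abundant, because both targeted genes act through DNA-binding factors: Eomes binds T-box sites and the TGF-beta receptor activates Smad proteins. The sequences are RefSeq windows of build GRCm38.p6, each covering the 250 bases before an annotated start, 5′ to 3′ on the gene's strand. Capitals mark the T-box core GTGTGA or its reverse complement TCACAC, the longer T-box match GGTGTGA, and the Smad element CAGAC or its reverse complement GTCTG. Of 3 annotated starts of Ccrl2, the one shown was picked after the search because it holds the longer match.
Cx3cr1, chr9:120068297-120068546, minus strand: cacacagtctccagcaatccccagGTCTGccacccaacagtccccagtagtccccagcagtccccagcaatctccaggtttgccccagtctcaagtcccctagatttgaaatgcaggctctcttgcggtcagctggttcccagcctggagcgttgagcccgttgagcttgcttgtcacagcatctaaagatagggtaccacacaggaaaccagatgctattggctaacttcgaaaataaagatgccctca
Ccr9, chr9:123766961-123767210, plus strand: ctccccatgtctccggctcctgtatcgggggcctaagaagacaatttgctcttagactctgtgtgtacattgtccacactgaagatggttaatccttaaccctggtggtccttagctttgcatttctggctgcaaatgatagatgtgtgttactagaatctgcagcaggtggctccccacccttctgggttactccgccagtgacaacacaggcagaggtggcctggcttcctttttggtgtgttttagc
Ccrl2, chr9:111057271-111057520, minus strand: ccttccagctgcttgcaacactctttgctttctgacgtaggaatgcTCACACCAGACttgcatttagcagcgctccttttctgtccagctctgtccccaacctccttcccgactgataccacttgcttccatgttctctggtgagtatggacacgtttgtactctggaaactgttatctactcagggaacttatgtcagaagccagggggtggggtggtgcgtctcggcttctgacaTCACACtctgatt
Ccr1, chr9:123968693-123968942, minus strand: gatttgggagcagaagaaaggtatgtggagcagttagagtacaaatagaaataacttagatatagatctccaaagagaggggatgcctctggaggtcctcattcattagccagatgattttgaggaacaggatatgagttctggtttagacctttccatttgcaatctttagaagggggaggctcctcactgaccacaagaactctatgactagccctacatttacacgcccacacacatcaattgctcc
Cxcr3, chrX:101734148-101734397, minus strand: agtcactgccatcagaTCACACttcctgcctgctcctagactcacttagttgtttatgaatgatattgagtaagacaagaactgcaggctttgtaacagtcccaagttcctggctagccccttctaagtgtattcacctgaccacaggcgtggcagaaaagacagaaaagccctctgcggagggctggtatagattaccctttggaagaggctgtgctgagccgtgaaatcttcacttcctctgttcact

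A promoter window of 300 bases (250 before and 50 after the start) was found for 8 of the 9 receptors, all but Ccr10. The T-box core occurred in windows of 3 of these 8, namely Ccr1, Ccrl2 and Cxcr3, and in 14.5% of the 32851 windows of all genes. In Ccr1 it lay 25 to 30 bases after the start, outside the sequence printed. Receptors are counted over 10 windows, 3 of them of Ccrl2, whereas the shares for all genes count single windows. The longer match GGTGTGA, which contains the core, occurred in Ccrl2 alone of the 8 and in 3.98% of all windows; there it shares 1 base with a Smad element, and 2 of the 3 Ccrl2 windows, which overlap, hold it. Smad elements were found for 4 of 8, namely Ccr8, Ccr9, Ccrl2 and Cx3cr1, and in 49.6% of all windows. Cx3cr1, the receptor with the largest ratio, had 2 Smad elements and no T-box core in its window. Of these Smad elements, 1 lay 30 to 34 bases after the start, outside the sequence printed. The Smad element of Ccr9 lay 9 to 13 bases after the start, also outside the sequence printed. These are letter matches in one window per start and no measure of binding.

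Ccr1 encodes a receptor for CCL3, CCL5, CCL6 and CCL9 on myeloid cells and some effector T cells. It had 190 reads in WT and 394 in DKO, or 8.66 CPM (7.47 to 9.98) and 19.7 CPM (17.8 to 21.8). The intervals of the 2 libraries did not overlap, and the ratio was 2.27 (1.91 to 2.72). Ccr2, its neighbour in the same gene cluster, had a ratio below 1.

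Ccr2 encodes the CCL2 receptor that releases monocytes from bone marrow and also serves memory T cells. It had 2835 reads in WT and 2245 in DKO, or 129 and 112 CPM. That was 1.15-fold lower in DKO (1.09 to 1.22), a small difference outside counting error at the scaling used for CPM. The log2 ratio of Ccr2 was -0.20 at that scaling and -0.04 when T cell receptor genes set the library scale. Ccr2 and Cxcr3 kept nearly the same proportion, with 3.06 Cxcr3 reads per Ccr2 read in WT (2.93 to 3.19) and 2.97 in DKO (2.83 to 3.11), and these intervals overlap. Set against Ccr1, Ccr2 went from 14.9 reads per Ccr1 read (12.9 to 17.4) to 5.70 (5.12 to 6.36).

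Ccrl2 encodes a chemerin-binding receptor found on activated myeloid cells, with less known in T cells. Its level was 5.56 CPM in WT (4.62 to 6.64) and 13.6 CPM in DKO (12.0 to 15.3), the latter from 272 reads. The levels were apart by more than counting error, at a ratio of 2.45 (1.97 to 3.05). Cmklr1, the signalling chemerin receptor, was 3.87-fold higher in DKO (3.18 to 4.73), from 6.02 to 23.3 CPM, whereas the gene of chemerin itself, Rarres2, was listed at 0 in both libraries.

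Among the receptors of barrier tissue, Ccr9 was the one called higher. Ccr9 had 214 reads in WT and 499 in DKO, or 9.76 CPM (8.49 to 11.2) and 25.0 CPM (22.8 to 27.3). The ratio was 2.56 (2.17 to 3.02). In the GRCm38 annotation, 21.5% of the exon bases of Ccr9 overlap other genes, among them Slc6a20a on the opposite strand, and reads there may have been counted elsewhere or as ambiguous. Ccl25, the thymic and intestinal ligand of CCR9, had 25 reads in WT and 1 in DKO, a 22.8-fold lower level with a wide interval (3.73 to 936).

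The 3 receptors best known from skin were scarce. Ccr10, a receptor for the epithelial chemokines CCL27 and CCL28 that plasma cells also carry, had 94 reads in WT and 50 in DKO, or 4.29 and 2.50 CPM. Its level was 1.71-fold lower in DKO (1.20 to 2.47), the lowest ratio of the 9. Ccr4, a receptor for CCL17 and CCL22 on type 2 helper, regulatory and skin-homing T cells, had 39 and 65 reads, or 1.78 and 3.25 CPM, at a ratio of 1.83 (1.21 to 2.79). Ccr4 passed 2-fold, at a log2 ratio of 1.03, when T cell receptor genes set the library scale. That was the 1 call of a receptor that another scaling changed. Ccr8, the CCL1 receptor of tissue regulatory T cells, had 15 and 18 reads, or 0.684 and 0.900 CPM, and its interval of 0.627 to 2.81 held 1, so no difference was detectable at this depth.

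**Figure D2:**
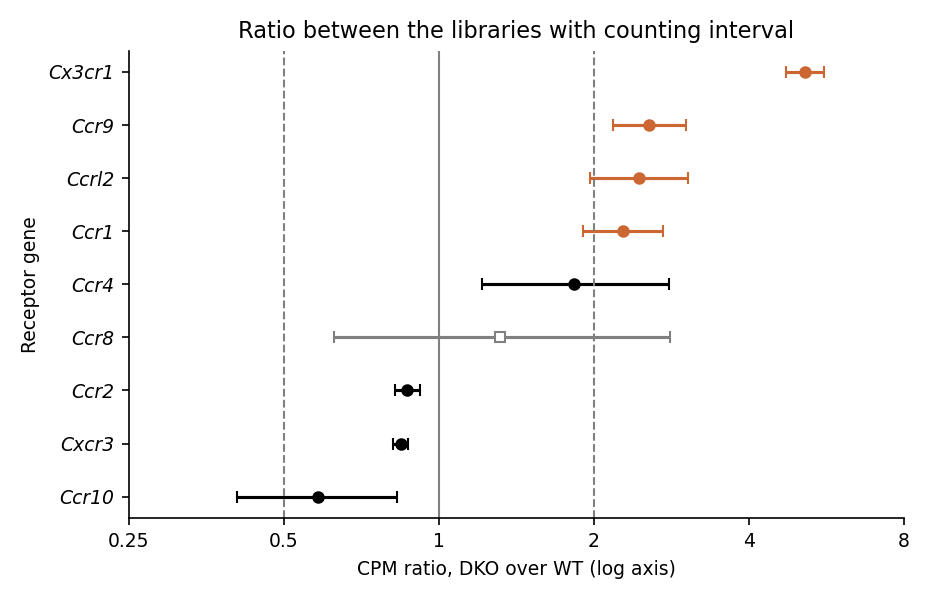
CPM ratio of DKO over WT for each receptor on a log axis with its exact 95% counting interval; orange marks genes called higher, the open grey square marks Ccr8 (under 1 CPM), and dashed lines mark 0.5 and 2. Cx3cr1 stands alone at 5.15, Ccr9, Ccrl2 and Ccr1 lie between 2.27 and 2.56, and Ccr2, Cxcr3 and Ccr10 lie below 1.

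Levels of different genes were compared per kilobase of annotated exon. In WT the order was Cxcr3 at 228 CPM per kilobase, Ccr2 at 19.1, Cx3cr1 at 6.58, Ccr1 at 3.06, Ccr10 at 2.48, Ccrl2 at 2.14, Ccr9 at 0.951, Ccr8 at 0.582 and Ccr4 at 0.575. Ccr1 and Ccr10, Ccr10 and Ccrl2, Ccr9 and Ccr8, and Ccr8 and Ccr4 were neighbours whose intervals overlapped. In DKO the order was Cxcr3 at 192, Cx3cr1 at 33.9, Ccr2 at 16.6, Ccr1 at 6.96, Ccrl2 at 5.24, Ccr9 at 2.43, Ccr10 at 1.45, Ccr4 at 1.05 and Ccr8 at 0.766. There Ccr10 and Ccr4, and Ccr4 and Ccr8, overlapped. Cx3cr1 and Ccr2 therefore changed places, and they did so with every length used; with coding length in place of exon length Ccr9 was the fourth in both libraries.

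The summed level of the 9 receptors was 585 CPM in WT and 663 in DKO, a ratio of 1.13 (1.11 to 1.16). Without Cx3cr1 the sum was lower in DKO, at 555 and 510 CPM and a ratio of 0.919 (0.895 to 0.944), so the direction of the sum rests on this gene. Within the sum Cxcr3 took 67.6% of the reads in WT (66.8% to 68.4%) and 50.3% in DKO (49.4% to 51.1%). The share of Cx3cr1 was 5.07% (4.69% to 5.46%) and 23.0% (22.3% to 23.7%), and that of Ccr2 22.1% and 16.9%. Of the reads on 20 chemokine receptor genes, these 9 and 11 others, the 9 took 30.0% in WT and 38.7% in DKO.

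**Figure D3:**
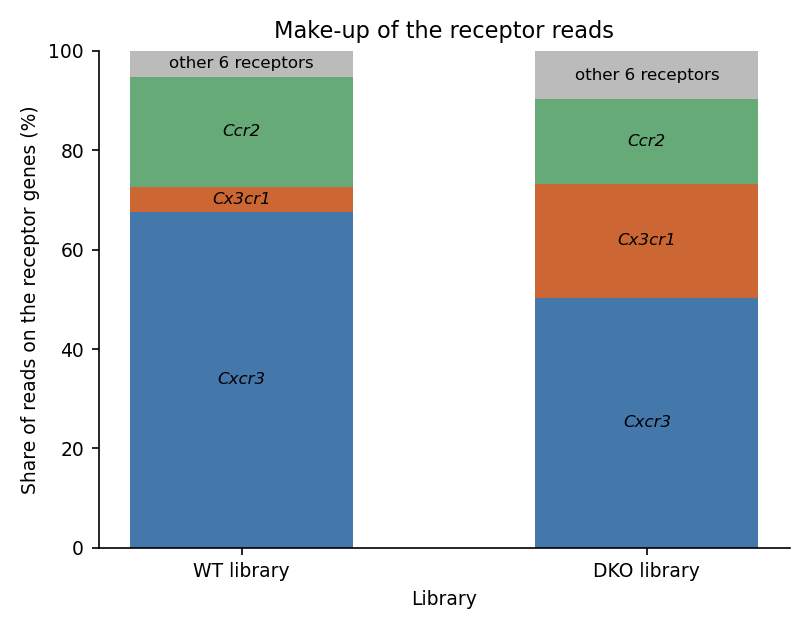
Share of the reads on the 9 receptor genes, in percent, taken by Cxcr3, Cx3cr1, Ccr2 and the other 6 together in each library; these are reads and not corrected for gene length. Cx3cr1 goes from 5.07% to 23.0%, Cxcr3 from 67.6% to 50.3%, and the other 6 from 5.25% to 9.79%.

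With genes grouped by the higher of their levels in WT and DKO, the median log2 ratio was 0.46 for genes of 1 to 5 CPM and -0.09 for those of at least 100 CPM. Grouping by the higher level is not independent of the ratio, so no receptor was ranked within such a group. Across all genes compared, 392 had a ratio at least as large as that of Cx3cr1.

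**Figure D4:**
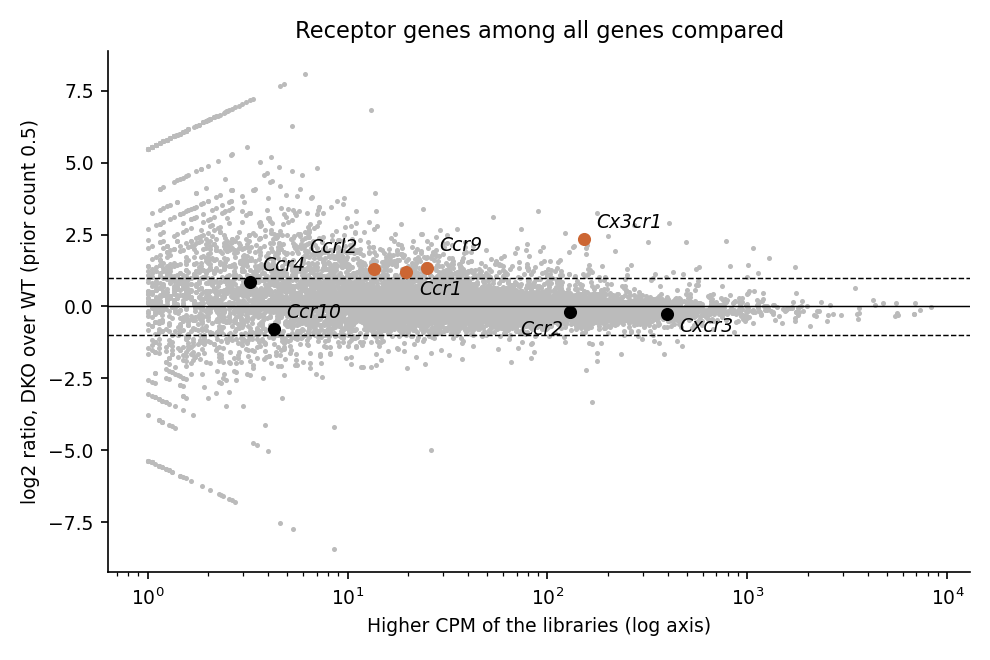
log2 ratio of DKO over WT (prior count 0.5) against the higher CPM of both libraries on a log axis, for 11735 genes in grey and the 8 receptors compared, with those called higher in orange and the others in black; dashed lines mark 2-fold. Cx3cr1 lies at a log2 ratio of 2.36 and Cxcr3 at -0.25; the horizontal position of a gene is set by the library in which it is higher.

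The other chemokine receptors gave a different balance. Of 11 listed, 9 were compared, with 1 called higher, 2 lower and 6 neither, and a median log2 ratio of 0.16. Their summed level was lower in DKO, at 1363 and 1050 CPM. Xcr1, the receptor of cross-presenting dendritic cells, was 4.0-fold higher (3.15 to 5.13), and Cxcr5, the B cell follicle receptor, 4.66-fold lower (4.29 to 5.07). Cxcr6, which holds T cells in liver and lung, had 315 and 353 CPM, and Cxcr4, the bone marrow receptor, 338 and 327 CPM. Of 7 atypical and chemerin receptors, 5 were at 0 in both libraries and 2 were called higher, Cmklr1 and Darc. Darc, an erythrocyte and endothelial chemokine sink, had 0 and 25 reads. It was 9.14-fold higher with a floor of 3 reads in place of 0, and its counting interval starts at 6.90. With 0 reads in WT it passed 1 CPM in DKO alone, and any such gene was bound to be called higher.

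Ligands of these receptors were followed in a list of 19 genes. Of the 9 compared, 6 were called higher, 1 lower and 2 neither, with a median log2 ratio of 1.23, and 7 of the 19 were at 0 in both libraries, which allows up to 0.137 CPM in WT and 0.150 CPM in DKO. Cxcl9 and Cxcl10, interferon-induced ligands of CXCR3, were 2.06-fold (1.74 to 2.44) and 4.98-fold higher (3.47 to 7.32), the latter from 37 and 168 reads. Ccl6 and Ccl9, ligands of CCR1 made by myeloid cells, were 2.34-fold and 3.03-fold higher. Ccl22, a CCR4 ligand of dendritic cells, went from 8.16 to 27.6 CPM, 3.38-fold higher (2.85 to 4.03). Its partner Ccl17 had 0 and 23 reads, 8.41-fold higher with 3 reads in place of 0, and a counting interval that starts at 6.31. Ccl17 passed 1 CPM in DKO alone, so its place among the 6 called higher was fixed by the filter. Ccl25, the 1 called lower, passed 1 CPM in WT alone. The median counts both.

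Ccl5, the ligand of CCR1 stored by cytotoxic T cells, was by far the most abundant, at 2185 and 3447 CPM, a ratio of 1.58 (1.56 to 1.60), while Ccl3 had 15.0 and 15.7 CPM. The genes listed at 0 in both were Ccl2, Ccl7 and Ccl12 of CCR2, Ccl28 of CCR10, Cxcl11, Rarres2, and Cx3cl1, the ligand of the receptor with the largest ratio. The ligands named here for CCR2 and CX3CR1 were therefore not detected in the sorted cells. Ccl8, another listed ligand, had 0 reads in WT and 4 in DKO.

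Of 40 genes compared that carry the receptor signal, from Gi subunits and arrestins to the guanine exchange factors of migration, 4 were called higher, 1 lower and 35 neither, and the median log2 ratio was 0.02. Rgs2, which shuts off G protein signals, was 2.21-fold higher (2.08 to 2.36), from 68.4 to 151 CPM. Tiam1, an activator of Rac in moving cells, was 2.51-fold higher, and Pik3r6, a regulatory subunit of PI3K gamma, had 12 and 109 reads. Pik3r6, at 0.547 and 5.45 CPM, passed 1 CPM in DKO alone, the library where it is high. The remaining calls, named after their values were seen, were Gnb4 at 2.21-fold higher and Rgs10 at a ratio of 0.489, from 285 to 139 CPM.

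Adhesion and other trafficking genes were compared in a list of 34, of which 10 were called higher, 0 lower and 24 neither, with a median log2 ratio of 0.34. Itga1, the collagen-binding integrin chain CD49a, was 6.53-fold higher (5.70 to 7.50), S1pr5, an egress receptor of NK cells and effector T cells, 3.84-fold (3.48 to 4.24) and P2ry14, a receptor for UDP-glucose, 3.98-fold. Among 24 transcription factors of T cell trafficking, 6 were called higher, 1 lower (Eomes) and 17 neither, with a median of 0.02. Zeb2, a transcriptional repressor that promotes terminal effector differentiation, was 2.76-fold higher (2.47 to 3.10), and Hic1, a factor of intestinal lymphocytes, 2.92-fold.

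By position, 7 of the 9 receptor genes lie on chromosome 9, as do Tgfbr2 and Eomes; Ccr10 lies on chromosome 11 and Cxcr3 on chromosome X. In the gene order of GRCm38, Ccr4 lies 13 protein-coding genes from Tgfbr2, Cx3cr1 21 from Eomes and Ccr8 26 from Eomes, while Ccrl2 is 30 from Tgfbr2 and Ccr9, Ccr1 and Ccr2 are 75 to 83 from Eomes. The nearest genes compared, up to 5 on each side of a receptor, had median log2 ratios between -0.22 for Ccrl2 and 0.35 for Ccr9. Around Cx3cr1 the median of 10 neighbours was 0.09, with 1 called higher and 0 lower, while Cx3cr1 itself had a log2 ratio of 2.36. Over 623 other protein-coding genes compared on chromosome 9, 10.9% were called higher and 2.89% lower, near the shares of all genes. A broader list of 42 genes around these loci, of which 30 were compared, had 5 called higher, 3 lower and a median of 0.04; Ltf, a neutrophil granule gene, was its largest called fold with reads in both libraries, at 7.15-fold.

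Many of these receptors are also made by cells other than CD8+ T cells, and markers of several such cells were higher in DKO. Of 20 monocyte and macrophage markers, 6 were called higher, 0 lower and 14 neither, at a median log2 ratio of 0.73, and their summed level was 3645 and 5221 CPM, 1.43-fold higher. Csf1r, Lyz2 and C1qa, which define these cells, were 1.89-fold, 2.02-fold and 1.43-fold higher. The largest ratio of that list was 3.83, of Cybb. Ccr2, also abundant on monocytes, had a ratio of 0.869. The part of monocytes and macrophages in the values of Cx3cr1, Ccr1, Ccrl2 and Ccr2 was not tested.

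NK cell markers, beside Cx3cr1, had 7 of 14 called higher, 1 lower (Eomes) and 6 neither, a median of 0.98 and summed levels of 1752 and 2687 CPM. Ncr1, which encodes the NK receptor NKp46, went from 33.5 to 86.6 CPM, 2.59-fold higher (2.37 to 2.82), and Cma1, also listed there, was the 1 marker with a ratio above that of Cx3cr1, at 5.73. Neutrophil markers, beside Ccr1 and Ccrl2, had 7 of 12 called higher, 0 lower and 5 neither, a median of 2.03 and summed levels of 687 and 2823 CPM, with S100a8 4.78-fold and Ngp 7.49-fold higher. The part of NK cells and neutrophils in these results was not tested.

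Dendritic cell markers, beside Ccr9 and Ccrl2, had 11 of 17 called higher, 0 lower and 6 neither, a median of 1.31 and summed levels of 1783 and 4635 CPM; Ccr9, which plasmacytoid dendritic cells carry, is itself 1 of the 17. Siglech, a defining marker of plasmacytoid dendritic cells, had 14 and 95 reads, or 0.638 and 4.75 CPM, 7.44-fold higher (4.23 to 14.1). It is 1 of the 11 called higher and passed 1 CPM in DKO alone, the library where it is high. Clec9a and Flt3 were 2.50-fold and 1.83-fold higher. CD4 and FOXP3 T cell markers, beside Ccr4 and Ccr8, had 8 of 11 called higher, 0 lower and 3 neither, a median of 1.93 and summed levels of 209 and 410 CPM. Cd4 went from 17.4 to 79.0 CPM and Foxp3 from 2.96 to 11.1 CPM, ratios of 4.53 (4.05 to 5.08) and 3.75 (2.83 to 5.02), both above the ratio of Ccr4. The part of dendritic cells and CD4 T cells in these results was not tested.

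Plasma cell markers, beside Ccr10, had 2 of 9 called higher, 1 lower and 6 neither, at summed levels of 396 and 657 CPM; Igj and Prdm1 were higher at 2.06-fold and 2.43-fold, and Tnfrsf17, with 29 and 10 reads, was lower. Tnfrsf17 passed 1 CPM in WT alone. Sdc1, a defining marker, had 4.06 and 3.90 CPM. The part of plasma cells in the values of Ccr10 was not tested. B cell markers had 1 of 9 called higher (Ms4a1), 2 lower (Cr2 and Cd22) and 6 neither, with summed levels of 145 and 107 CPM. Gamma-delta and innate-like T cell markers had 1 of 5 higher (Zbtb16) and 1 lower (Cd163l1), at 42.0 and 37.7 CPM. Though both sums were lower in DKO, 7 of the 9 and 4 of the 5 ratios were above 1. The median log2 ratios were 0.58 and 0.81. Cd22 went from 82.8 to 24.1 CPM and Cd163l1 from 26.0 to 8.45 CPM. CD8 T cell markers, beside Cxcr3, had 0 of 16 called in either direction, a median of -0.20 and summed levels of 12304 and 10677 CPM, a ratio of 0.868 beside the 0.843 of Cxcr3. The part of CD8 T cells, or of any other cell type, in the values of Cxcr3 was not tested. Tnfrsf17, Cr2, Ms4a1, Zbtb16 and Cd163l1 were named to complete small counts.

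**Figure D5:**
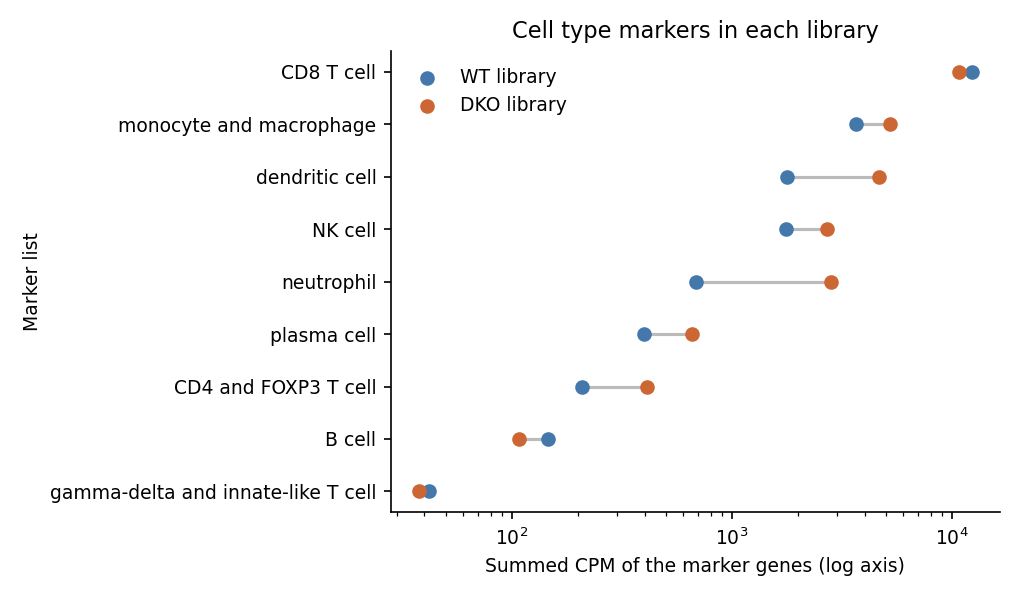
Summed CPM of each cell type marker list on a log axis, with WT in blue and DKO in orange. The sums of neutrophils, dendritic cells, CD4 and FOXP3 T cells, plasma cells, NK cells and macrophages are higher in DKO. Those of CD8 T cells, B cells and gamma-delta T cells are lower. For B cells and gamma-delta T cells the median log2 ratio was above 0, at 0.58 and 0.81.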

How the data were processed

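Total RNA libraries of 1 WT and 1 DKO sample were read as 50-base single-end reads, per the labels' protocols. The authors deposited raw counts of reads per gene; bcl2fastq, TopHat2 2.0.8b, HTSeq and the build mm9 are listed, without roles, per the submitters' processing notes. The annotation and the strand setting of counting were not stated there. The 5 summary rows that name no gene (71.5% of the WT total and 69.5% of the DKO total, mostly non-unique alignments) were left out.

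Counts were scaled by TMM factors (edgeR 4.0.16, R 4.3.3) to CPM. Ratios are of CPM, with exact Clopper-Pearson 95% intervals (scipy 1.17.1); levels have exact Poisson intervals. Log2 ratios used a prior count of 0.5. Intervals and floors (3 reads) cover counting error only, and reads are not independent molecules. No p-value was computed. The steps were tested on simulated data.

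Members and lists were chosen with earlier results of these data known. Named were all members, fixed marker genes, up to 3 genes per list with the largest log2 ratio at 5 CPM or more, and the 5 genes nearest Cx3cr1; some of these are not reported here. Exon lengths and gene order came from GENCODE M21 (GRCm38, not mm9), matched for 97.9% of genes. Of 50-base windows in the receptor transcripts, 1.91% for Ccr2, 1.06% for Cx3cr1, 0.465% for Ccr4 and 20.1% for Ccr9 also occur in other genes, and 0 for the rest. Alternatives were other scalings (total counts, DESeq2 1.42.0 size factors, upper quartile, T cell receptor genes), filters, fold limits, prior count and gene length. The scale called T cell receptor genes used a list of 20 T cell receptor, CD8 and signalling genes, among them Zap70, Vav1, Nfatc2 and Trat1.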

Additional observations from a re-analysis of the deposited data

How the results depend on the processing

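The same 4 receptors (Cx3cr1, Ccr9, Ccrl2 and Ccr1) were called higher under scaling by total counts, DESeq2 size factors or upper quartile and under either filter, and none was called lower. Scaling by T cell receptor genes, which moved the median of all genes to 0.17, added Ccr4; the 1.5-fold limit added Ccr4 and called 1 receptor lower, Ccr10; the 4-fold limit left 1 higher, Cx3cr1. No log2 ratio of a receptor changed sign, though that of Ccr2 went to -0.04 and that of Cxcr3 to -0.08 with T cell receptor genes as scale. The median log2 ratio of the receptors was 1.19 with that scale, 0.86 without a filter and 1.24 at a minimum of 5 CPM. Over all genes, 679 were lower without a filter (431 at 1 CPM); at 5 CPM 740 were higher and 149 lower, at 1.5-fold 2074 and 992, and at 4-fold 525 and 143. Fewer or more genes tested, or a different limit, account for these counts by construction. With T cell receptor genes as scale 83.8% of called genes were higher, against 76.1%. Depth limits Ccr8 most. No paired analysis was possible because each genotype has 1 library.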
